A study of Homo sapiens with 18 samples.

Results

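Chromosome 19 carries many of the human genes for C2H2 zinc finger proteins, in dense clusters. The set described here is every gene with a ZNF symbol of digits, with at most 1 further letter, that the expression tables place on chromosome 19. It comprised 261 genes of 63677 identifiers in the tables. GENCODE v29 annotates 245 of them as protein coding and 16 as pseudogenes, and all but 12 fell into 9 clusters once the chromosome was divided wherever neighbouring gene starts lay over 1000000 bases apart. Expression was measured by bulk RNA sequencing of xenograft tumours, grown in mice from 3 established neuroblastoma cell lines, SKNAS, LAN-1 and KELLY. The 6 groups were SKNAS Hmx1 and SKNAS control, LAN-1 Hmx1 and LAN-1 control, and KELLY Hmx1 and KELLY control, with 3 libraries each and 18 libraries in all. The labels give the treatment of every library as None and give the genotype MYCN-amp for 2 of the KELLY control libraries. They leave unstated in which direction Hmx1 was changed, from which species its sequence came, whether the arms are clones, or whether the libraries of a group came from separate mice. The p-values therefore measure spread among libraries that may be technical replicates.

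Most zinc finger proteins encoded on chromosome 19 pair an array of DNA-binding fingers with a KRAB domain, which recruits the corepressor TRIM28 and, through it, histone methyltransferases, heterochromatin proteins and DNA methylation. Many bind transposable elements, and the clusters grew by repeated tandem duplication, so that neighbouring genes are often close relatives. The clusters themselves carry heterochromatin marks over the gene bodies, and promoters of single members are known to be methylated and silent in carcinomas.

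Values are TPM, transcript abundance scaled for gene length to the same total in every library. TPM keeps no read depth, so no counting interval can be given, but the deposited mean coverage per TPM was 0.938 to 1.22 for a gene of typical ratio, so that a gene at 1 TPM was covered by about 1 read per base. HMX1 itself reached 0.193 to 1.24 TPM in SKNAS Hmx1 libraries and was listed at 0 TPM in the SKNAS control libraries. That difference did not pass (limma adjusted p = 0.127). The arms overlapped in KELLY (4.68 to 6.40 against 3.92 to 7.72 TPM) and in LAN-1 (11.45 to 16.5 against 11.1 to 11.9 TPM). The 8 noradrenergic neuroblastoma markers together reached 1589 to 5995 TPM per library. The 5 macrophage and leukocyte markers summed to 189 to 286 TPM in SKNAS Hmx1 and 77.1 to 105 TPM in SKNAS control libraries, and to at most 1.60 TPM in the other lines. Nearly all of the SKNAS sums was PTPRC, with 231 ± 49.6 TPM in Hmx1 and 91.9 ± 14.2 TPM in control tumours (SD, n = 3 libraries each). CD14 was lower in SKNAS Hmx1, with 0.523 ± 0.242 TPM, against 1.34 ± 0.283 TPM in SKNAS control tumours (limma adjusted p = 0.0277), and CD68, AIF1 and CSF1R averaged at most 0.706 TPM in either arm. The 5 fibroblast markers summed to 735 to 832 TPM in SKNAS Hmx1 and 1081 to 1270 TPM in SKNAS control libraries. Of these, LUM and DPT were called lower in SKNAS Hmx1, COL1A1 and COL3A1 had lower means without passing, and DCN averaged 101 ± 9.86 TPM in SKNAS Hmx1 and 69.3 ± 20.1 TPM in SKNAS control tumours without passing (limma adjusted p = 0.0629). Mitochondrial transcripts took 4.47% to 33.8% of a library, and the first KELLY control library, with the highest share, also had the lowest sum over the 261 zinc finger genes (1424 TPM, against 2081 and 2443 TPM in the other KELLY control libraries).

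Promoter sequences are shown for 6 genes of cluster 8, because the results turn on this cluster. No promoter sequence was available for ZNF28 and ZNF600, the genes of the cluster that fell most in SKNAS Hmx1 tumours. ZNF528 rose in SKNAS Hmx1 tumours, ZNF83 and ZNF611 fell there and were listed at 0 TPM in LAN-1, ZNF160 was listed at 0 TPM in LAN-1, and ZNF320 and ZNF677 were read only in KELLY at more than a trace. Each sequence is RefSeq's, from 250 bases before to 50 bases after the gene start on GRCh38.p14, in the direction of transcription, with every CG dinucleotide in capitals.
ZNF528 (chr19:52397599-52397898, plus strand): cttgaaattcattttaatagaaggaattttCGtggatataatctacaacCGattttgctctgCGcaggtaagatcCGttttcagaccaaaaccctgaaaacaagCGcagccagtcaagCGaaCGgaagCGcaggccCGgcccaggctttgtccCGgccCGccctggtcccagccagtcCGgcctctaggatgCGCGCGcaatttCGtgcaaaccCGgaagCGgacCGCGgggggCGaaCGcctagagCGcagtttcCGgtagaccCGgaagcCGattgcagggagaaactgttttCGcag
ZNF83 (chr19:52690447-52690746, minus strand): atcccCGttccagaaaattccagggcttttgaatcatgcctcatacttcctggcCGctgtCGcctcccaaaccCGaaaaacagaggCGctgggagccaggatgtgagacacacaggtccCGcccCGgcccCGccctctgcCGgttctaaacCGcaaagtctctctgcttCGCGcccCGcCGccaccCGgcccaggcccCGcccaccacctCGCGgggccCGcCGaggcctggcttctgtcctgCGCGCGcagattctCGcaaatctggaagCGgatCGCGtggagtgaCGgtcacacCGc
ZNF611 (chr19:52734995-52735294, minus strand): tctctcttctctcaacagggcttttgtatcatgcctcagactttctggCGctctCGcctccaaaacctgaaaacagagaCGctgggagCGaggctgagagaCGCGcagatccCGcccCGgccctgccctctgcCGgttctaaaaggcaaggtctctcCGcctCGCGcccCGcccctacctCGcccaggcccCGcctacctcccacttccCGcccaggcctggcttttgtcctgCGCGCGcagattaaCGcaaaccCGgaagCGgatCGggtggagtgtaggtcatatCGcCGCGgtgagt
ZNF320 (chr19:52897645-52897944, minus strand): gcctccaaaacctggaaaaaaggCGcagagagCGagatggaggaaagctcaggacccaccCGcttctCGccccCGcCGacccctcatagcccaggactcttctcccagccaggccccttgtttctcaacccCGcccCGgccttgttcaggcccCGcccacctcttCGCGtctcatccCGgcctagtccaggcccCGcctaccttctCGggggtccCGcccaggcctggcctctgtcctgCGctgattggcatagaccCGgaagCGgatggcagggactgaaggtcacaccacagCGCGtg
ZNF160 (chr19:53103373-53103672, minus strand): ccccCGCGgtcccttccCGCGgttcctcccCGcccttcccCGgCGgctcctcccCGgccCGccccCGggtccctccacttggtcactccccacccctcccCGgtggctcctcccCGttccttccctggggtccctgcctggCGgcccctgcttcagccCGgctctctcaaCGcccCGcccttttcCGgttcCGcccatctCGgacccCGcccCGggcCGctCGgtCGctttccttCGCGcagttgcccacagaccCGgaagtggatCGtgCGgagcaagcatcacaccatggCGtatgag
ZNF677 (chr19:53254824-53255123, minus strand): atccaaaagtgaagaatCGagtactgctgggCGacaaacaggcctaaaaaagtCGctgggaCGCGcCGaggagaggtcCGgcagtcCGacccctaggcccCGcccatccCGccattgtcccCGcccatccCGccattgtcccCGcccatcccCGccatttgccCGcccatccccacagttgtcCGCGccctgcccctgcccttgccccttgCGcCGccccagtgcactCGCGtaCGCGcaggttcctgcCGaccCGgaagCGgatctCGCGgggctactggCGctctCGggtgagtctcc
These windows held between 20 CG dinucleotides (ZNF320) and 30 (ZNF160 and ZNF677). The motif CG reads the same on both strands, and its median was 13 per window over 27305 RefSeq promoters of this length, against 20 over the 214 chromosome 19 zinc finger genes with an entry. At least 10 CG were found in 55.9% of all windows and in 93.0% of those of the zinc finger genes. The 22 genes with an entry that were silent or active in a single line had a median of 20.5 CG, against 20 for the other 192. The ZNF83 and ZNF611 windows were alike at 79.1% of aligned bases, while the median over 22791 pairs of zinc finger gene promoters was 50.6% and the 99th percentile 76.3%. The other pairs among the windows shown were alike at 48.7% to 59.6%. All other coordinates are those of the expression tables, which were read as GRCh37 because their last gene on chromosome 1 ends at 249231242, past the end of that chromosome in GRCh38.

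The 261 genes were mostly low to moderate in level. Their mean over 18 libraries had a median of 5.39 TPM and a maximum of 74.8 TPM. TPM of at least 1 was reached in all 18 libraries by 138 genes, while 9 stayed under 0.1 TPM in every library and 5 of these were listed at 0 TPM throughout. For the tests, 230 genes had at least 1 TPM in at least 3 libraries and 31 did not. Among the 230, 176 reached 1 TPM in at least 1 library of every line, 19 in KELLY and LAN-1 alone, 19 in KELLY and SKNAS alone, 14 in KELLY alone and 2 in LAN-1 alone. Between 212 and 229 of the 261 genes reached 1 TPM per KELLY control library, against 181 to 188 in SKNAS and 182 to 189 in LAN-1 control libraries.

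**Figure D1:**
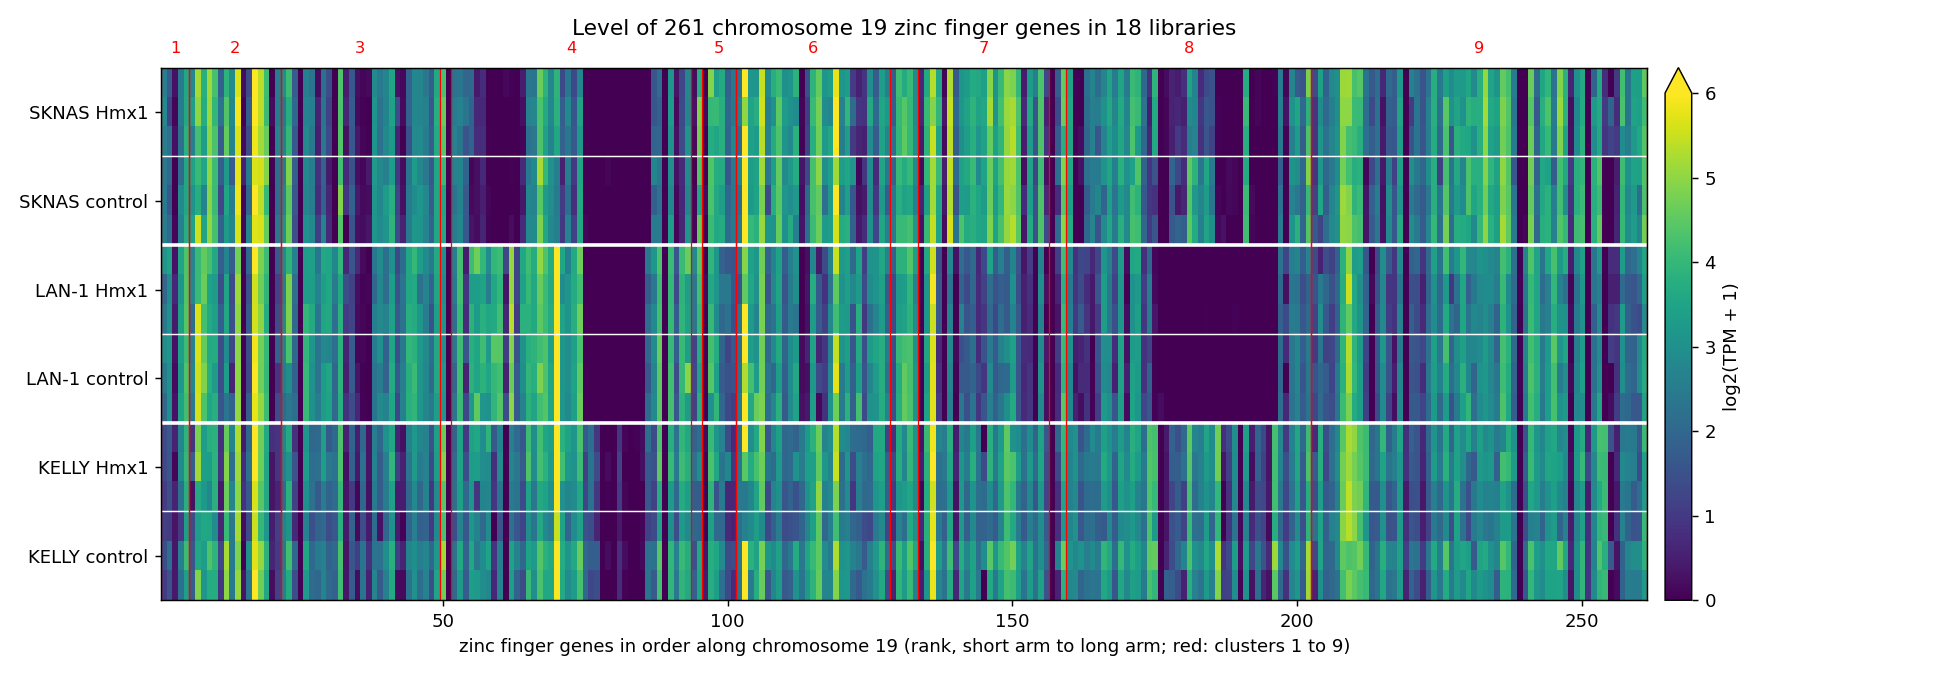
Level of the 261 zinc finger genes, as log2(TPM + 1) by colour, in the 18 libraries (rows) in their order along chromosome 19 (columns), with red lines at the ends of the 9 clusters. A dark run of 20 genes in cluster 8 was seen in all 6 LAN-1 libraries, dark runs in cluster 4 in SKNAS and LAN-1, and no such block in KELLY cluster 8.

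The 10 genes with the highest mean were ZNF146, ZNF121, ZNF738, ZNF428, ZNF875, ZNF266, ZNF561, ZNF581, ZNF529 and ZNF358. ZNF146, which consists of zinc fingers without a KRAB domain, had 91.7, 31.2 and 125 TPM in SKNAS Hmx1 and 120.8, 127 and 124.1 TPM in SKNAS control libraries. In KELLY it had 106.7, 21.0 and 4.34 TPM in Hmx1 and 5.22, 79.7 and 113.6 TPM in control libraries. It varied within groups more than any other of the 230 genes, with a within-group SD of 1.45 on the log2(TPM + 1) scale against a median of 0.279, and it lies wholly inside the span of ZNF565 on the opposite strand. ZNF121, on the short arm, had 45.2 to 67.8 TPM in every library and differed little between lines. ZNF738 stood apart by line: it averaged 12.8 ± 1.52 TPM in SKNAS Hmx1 and 4.81 ± 0.290 TPM in SKNAS control tumours. In LAN-1 it averaged 75.7 ± 1.59 TPM in Hmx1 and 76.5 ± 5.22 TPM in control tumours. In KELLY it averaged 73.7 ± 10.9 TPM in Hmx1 and 70.3 ± 23.0 TPM in control tumours (SD, n = 3 libraries each).

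A zinc finger gene was called silent in a single line when all 3 control libraries of the line lay under 0.1 TPM and all 6 control libraries of the other lines had at least 1 TPM. The rule picked 10 genes in LAN-1, 7 in SKNAS and 0 in KELLY. These are descriptions without a test, since the level chose the genes. The share was 6.02% of the 166 zinc finger genes with at least 1 TPM in all 6 SKNAS and KELLY control libraries, against 0.989% of the 12440 genes of any kind for which the same held. For SKNAS it was 4.19% of 167 zinc finger genes, against 1.17% of 12547 genes. ZNF genes of other chromosomes gave 3 of 209 in LAN-1 and 2 of 207 in SKNAS, and the other genes of chromosome 19 gave 5 of 660 and 8 of 670. For KELLY the figure over all genes was 0.729%. Fewer cells that express a gene and less of its RNA per cell cannot be told apart in bulk tumours.

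In LAN-1 the silent genes were ZNF285 in cluster 7, ZNF350, ZNF808, ZNF83, ZNF611, ZNF600, ZNF28, ZNF468 and ZNF160 in cluster 8, and ZNF582 in cluster 9. ZNF83 was listed at 0 TPM in all 6 LAN-1 libraries. It had 10.1, 6.38 and 4.70 TPM in SKNAS Hmx1 and 21.8, 20.1 and 21.6 TPM in SKNAS control libraries, and 21.7, 20.5 and 17.6 TPM in KELLY Hmx1 and 15.6, 18.4 and 12.6 TPM in KELLY control libraries. ZNF160, reported to repress the Toll-like receptor gene TLR4 in intestinal epithelial cell lines, was also listed at 0 TPM in all 6 LAN-1 libraries and had 12.03, 15.6 and 12.6 TPM in SKNAS Hmx1, 11.8, 16.0 and 16.8 TPM in SKNAS control, 9.56, 8.42 and 6.37 TPM in KELLY Hmx1, and 5.29, 8.81 and 7.32 TPM in KELLY control libraries. ZNF808, which silences MER11 transposable elements during human pancreas development, was at 0 TPM in LAN-1 too. The Hmx1 libraries, which the rule did not read, stayed under 0.1 TPM for 9 of the 10 genes. The exception was ZNF350, also called ZBRK1, a repressor that binds BRCA1. It had 0.579, 0.334 and 0.313 TPM in LAN-1 Hmx1, against 0, 0.0486 and 0.0481 TPM in LAN-1 control libraries. ZNF582, whose promoter is a methylation marker in cervical carcinoma, reached 0.0858 TPM in 1 LAN-1 Hmx1 library and was listed at 0 TPM in the other 5. The margin of the rule was wide in LAN-1: the highest control value of a gene inside it was 0.0486 TPM (ZNF350), and the nearest gene outside, ZNF470, reached 0.374 TPM.

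In SKNAS the silent genes were ZNF69 in cluster 3, ZNF682, ZNF486, ZNF626 and ZNF730 in cluster 4, ZNF671 in cluster 9, and ZNF536, which lies in no cluster. ZNF486 was listed at 0 TPM in all 6 SKNAS libraries and had 16.2, 14.7 and 17.0 TPM in LAN-1 Hmx1 and 20.3, 17.3 and 20.2 TPM in LAN-1 control libraries. In KELLY it had 5.49, 6.44 and 3.92 TPM in Hmx1 and 1.92, 4.99 and 5.28 TPM in control libraries. ZNF671, another gene with a promoter known to be methylated in carcinomas, was at 0 TPM in SKNAS except for 0.0516 TPM in 1 control library, and had 1.69 to 5.64 TPM in the 12 libraries of the other lines. ZNF69, ZNF626 and ZNF730 were listed at 0 TPM in all 6 SKNAS libraries, and ZNF682 reached at most 0.0798 TPM. The Hmx1 libraries of SKNAS stayed under 0.1 TPM for 6 of the 7 genes. ZNF536, a brain zinc finger that represses neuronal differentiation by retinoic acid in a mouse cell model, was the exception, with 0.173, 0.230 and 0.109 TPM in SKNAS Hmx1, against 0, 0.0751 and 0.0719 TPM in SKNAS control libraries. The nearest gene outside the rule in SKNAS, ZNF737, reached 0.141 TPM. The promoters of the 4 silent genes of cluster 4 held 8 to 16 CG. Those of cluster 4 genes neither silent nor active in a single line held 8 (ZNF737) to 18 (ZNF101), so the silent genes were not set apart. The cluster 8 windows shown held 20 to 30, but other windows of that cluster held as few as 14 (ZNF836).

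The mirror rule, at least 1 TPM in all 3 control libraries of one line and under 0.1 TPM in the 6 others, picked 7 genes in KELLY and 0 in SKNAS and LAN-1, where it held for 1.53% and 0.555% of genes of any kind. They were ZNF208 and ZNF257 in cluster 4, ZNF320, ZNF816, ZNF347 and ZNF677 in cluster 8, and ZNF544 in cluster 9. They made up 3.40% of the 206 zinc finger genes with at least 1 TPM in all KELLY control libraries, against 0.736% of the 13729 genes of any kind for which the same held. ZNF677, which is methylated in lung carcinoma, had 17.8, 17.1 and 17.3 TPM in KELLY Hmx1 and 12.4, 33.1 and 21.0 TPM in KELLY control libraries, and at most 0.0401 TPM in the other 12. ZNF320 had 24.8, 24.8 and 14.8 TPM in KELLY Hmx1 and 14.8, 36.6 and 28.7 TPM in KELLY control libraries, and at most 0.0907 TPM elsewhere. All 7 also reached 1 TPM in every KELLY Hmx1 library. In the Hmx1 libraries of the other lines, 6 stayed under 0.1 TPM and ZNF544 did not.

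Many of the silent genes were neighbours. Read along the chromosome over both arms, the longest run of neighbouring zinc finger genes under 0.1 TPM in all 6 libraries of a line was 20 genes of cluster 8 in LAN-1, from ZNF578 to ZNF677 (GRCh37 chromosome 19, 52956829 to 53758151, 801 kb). Of these, 18 were listed at 0 TPM in all 6 LAN-1 libraries, and the highest value in the run was 0.0440 TPM (ZNF816). In the other lines, 12 of the 20 had at least 1 TPM in all 6 KELLY libraries and 5 in all 6 SKNAS libraries. At the far end of the run, ZNF845, the next gene, was measured in every LAN-1 library. Before the run LAN-1 was low at some genes too, with at most 0.417 TPM for ZNF836 in LAN-1 control libraries. Of the 43 genes of cluster 8, 13 to 15 reached 1 TPM per LAN-1 control library. The 801 kb also held 19 identifiers that are not of the set, of which 16 lay under 0.1 TPM in LAN-1. Only 2 of the 19 had at least 0.1 TPM in all 12 libraries of the other lines, and only these 2 are given here. The pseudogene NDUFV2P1 had 0 to 0.434 TPM in LAN-1, against 2.06 to 5.55 TPM in the other 12 libraries, and the sense-intronic ENSG00000269825 had at most 0.0388 TPM in LAN-1, against 0.164 to 2.76 TPM. Copy number was not measured, so a lost segment and a silent one cannot be told apart.

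**Figure D2:**
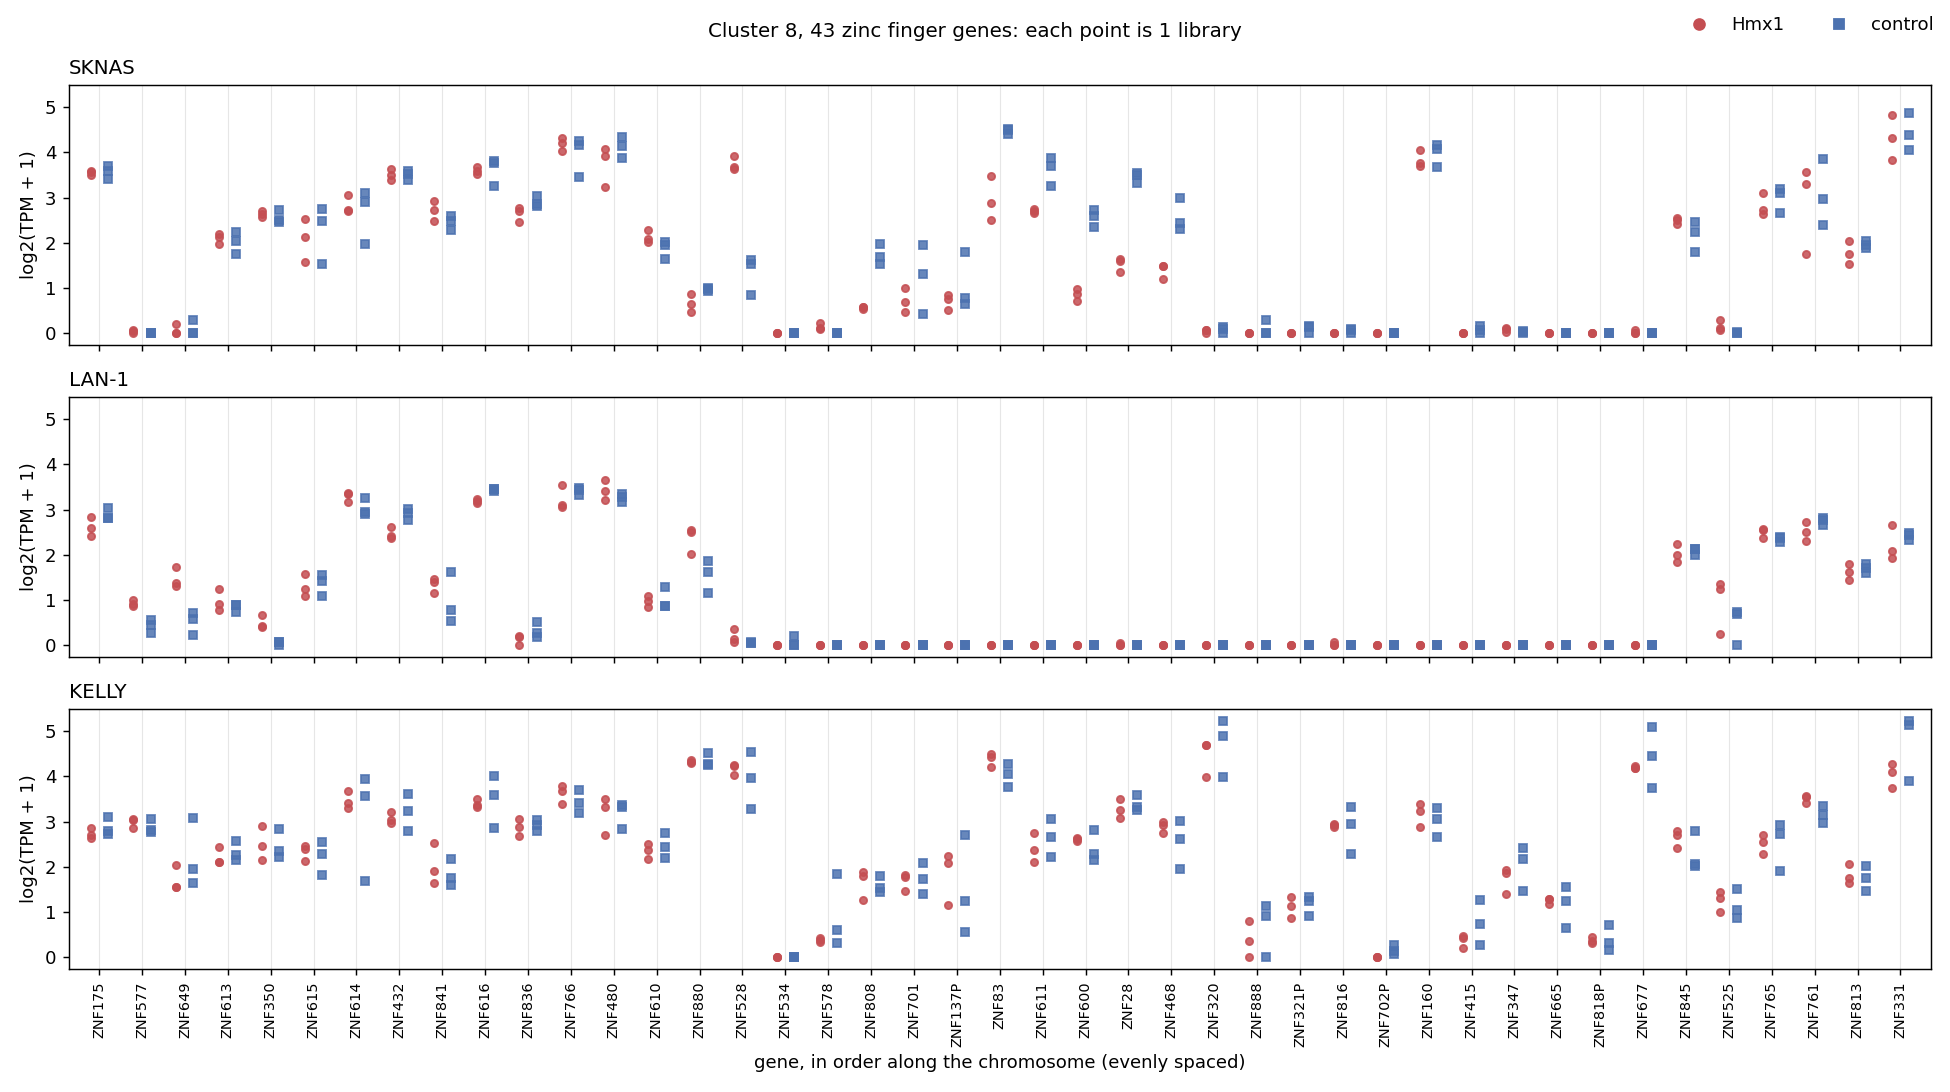
Level of the 43 zinc finger genes of cluster 8, as log2(TPM + 1), in SKNAS, LAN-1 and KELLY from top to bottom, with Hmx1 libraries as red circles left of control libraries as blue squares. LAN-1 points lie at or near 0 from ZNF578 to ZNF677, while 12 of these 20 genes are above 1 in every KELLY library, and 6 of the 8 from ZNF808 to ZNF468 are lower in SKNAS Hmx1 than in SKNAS control libraries.

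Cluster 4, next to the centromere on the short arm, carried runs in SKNAS and in LAN-1. In SKNAS the runs were 12 genes from ZNF208 to ZNF730 (22115760 to 23330021) and 4 genes from ZNF682 to ZNF826P. In LAN-1 there was 1 run of 11 genes from ZNF208 to ZNF728, all at 0 TPM in all 6 libraries. These runs share 11 genes, and most of the 11 were low in KELLY as well, where only 2 of them had at least 1 TPM in all 6 libraries (ZNF208 and ZNF257). The lines parted at the edges. ZNF730 was listed at 0 TPM in SKNAS, against 2.41 to 4.35 TPM in LAN-1 Hmx1 and 2.09 to 3.33 TPM in LAN-1 control libraries, and the block from ZNF682 to ZNF826P held ZNF90 and ZNF486, with up to 20.6 and 20.3 TPM in LAN-1. SKNAS also had a run of 4 genes in cluster 8 from ZNF347 to ZNF677.

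**Figure D3:**
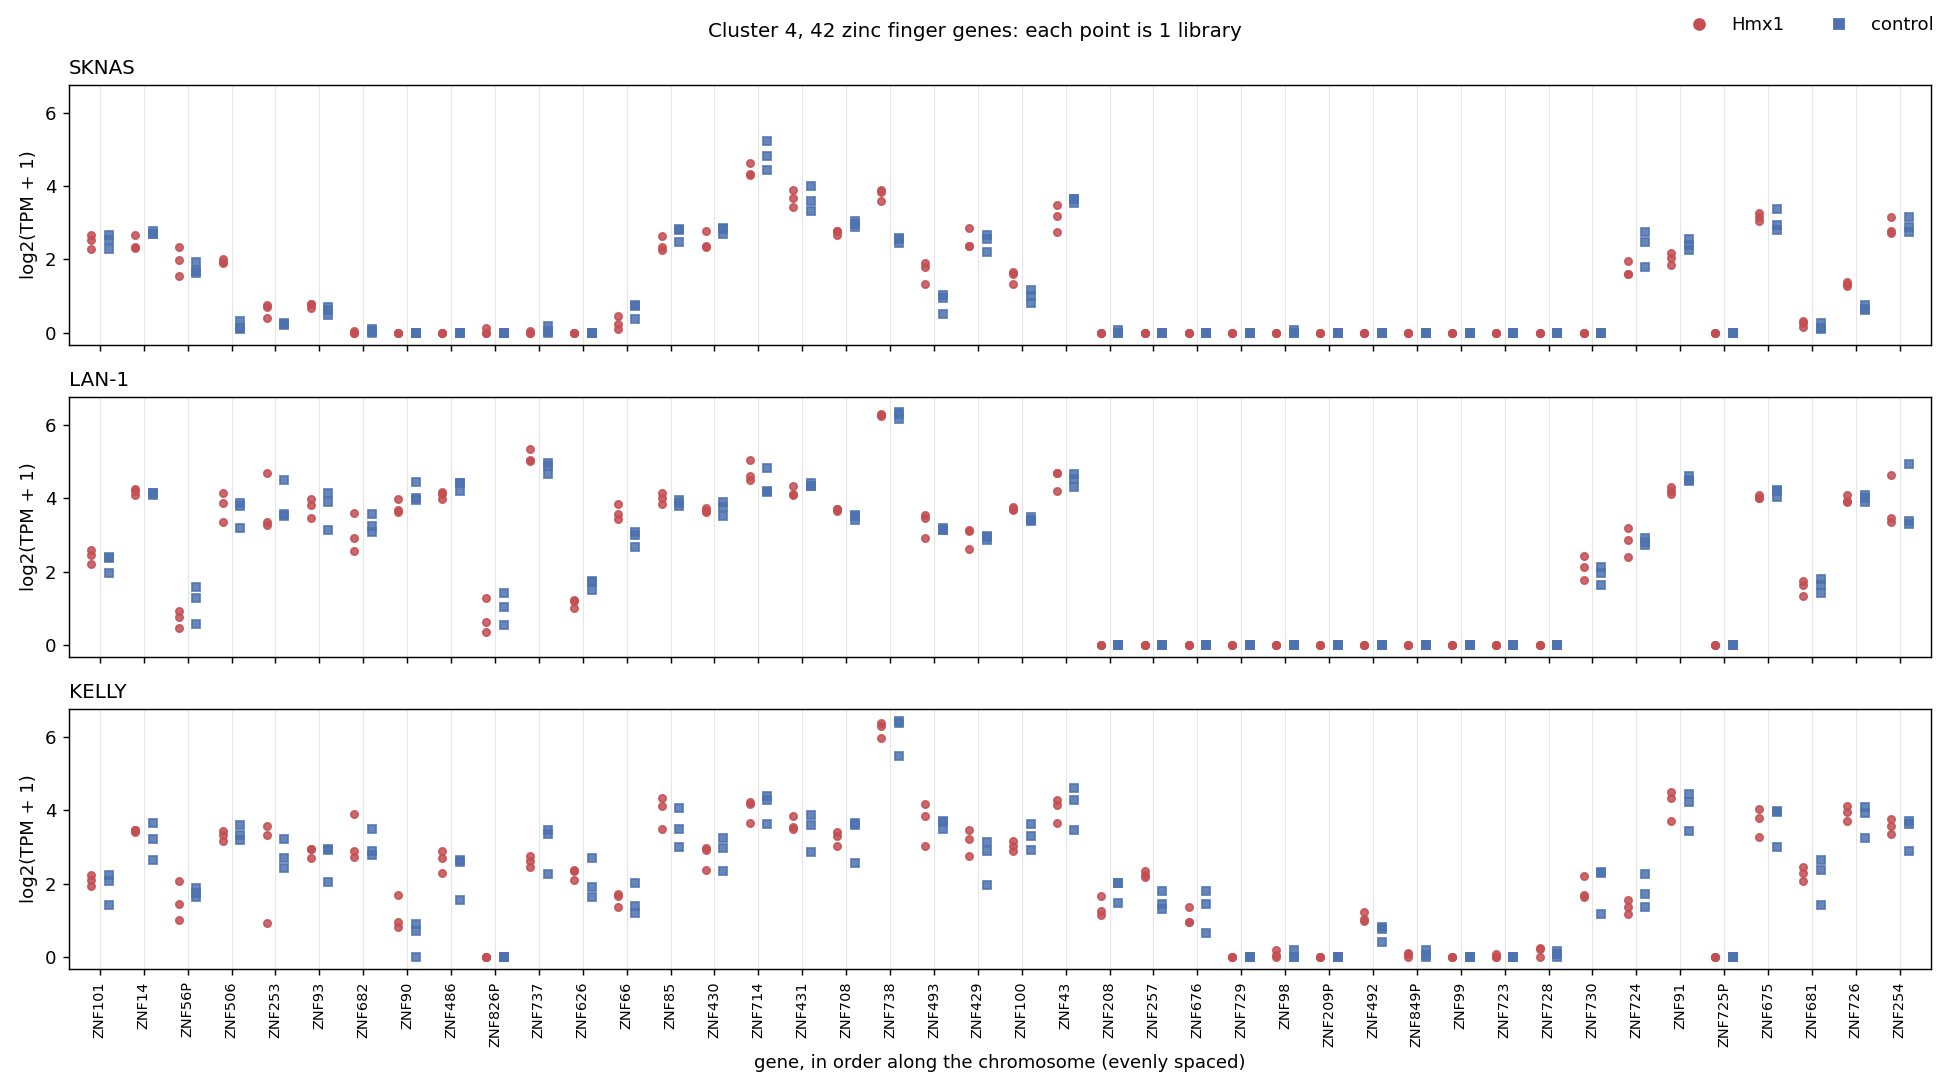
Level of the 42 zinc finger genes of cluster 4, as log2(TPM + 1), in SKNAS, LAN-1 and KELLY from top to bottom, with Hmx1 libraries as red circles left of control libraries as blue squares. ZNF208 to ZNF728 lie at or near 0 in SKNAS and LAN-1, and the genes from ZNF682 to ZNF626 lie near 0 in SKNAS but mostly above 1 in LAN-1.

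Differences between lines over whole clusters were read from the control arms. Each pair was compared with limma on log2(TPM + 1) over all 18650 genes tested, with a Benjamini-Hochberg adjusted p under 0.05 as the call. The comparisons share control libraries with each other. Between SKNAS and LAN-1, 93 of 230 zinc finger genes were higher and 47 lower, where 52.0% of all genes were called, 31.5% higher and 20.5% lower. Between SKNAS and KELLY, 71 were higher and 57 lower (65.7% of all genes called, 49.5% higher and 16.1% lower), and between LAN-1 and KELLY 37 were higher and 69 lower (51.8% of all genes called, 38.2% higher and 13.6% lower). The share called was 60.9%, 55.7% and 46.1%. The split turned with scaling between SKNAS and KELLY, and kept its direction between SKNAS and LAN-1 and between LAN-1 and KELLY. The median of all genes was itself 0.18, 0.54 and 0.34 in these comparisons on the log2 scale. With median-ratio scaling the splits were 88 higher and 56 lower, 28 higher and 94 lower, and 26 higher of 134 called. With quantile normalization they were 78 higher and 62 lower, 26 higher and 95 lower, and 31 higher and 100 lower. Relative to the median of all genes the zinc finger genes had medians of 0.22, -0.33 and -0.42, while ZNF genes of other chromosomes had -0.01, 0.07 and 0.11. Of the 230 genes, 14 reached 1 TPM in KELLY alone and 2 in LAN-1 alone. Those 14 could hardly come out higher than in KELLY, so the splits and medians against KELLY follow in part from the filter.

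Clusters differed in opposite directions. In cluster 4, 0 tested genes were higher and 23 of 33 lower in SKNAS than in LAN-1, and 2 were higher and 20 lower in SKNAS than in KELLY, with 17 genes lower in both comparisons. The summed level of cluster 4 in control tumours was 117.9 ± 15.6 TPM in SKNAS, 421 ± 7.51 TPM in LAN-1 and 293 ± 92.4 TPM in KELLY (SD, n = 3 libraries each). In cluster 7, 17 of 22 tested genes were higher and 1 lower in SKNAS than in LAN-1, and in LAN-1 0 were higher and 16 lower than in KELLY. Its summed level was 335 ± 30.0 TPM in SKNAS control, 116.3 ± 4.04 TPM in LAN-1 control and 219 ± 53.0 TPM in KELLY control tumours. In cluster 8, 0 of 37 tested genes were higher and 27 lower in LAN-1 than in KELLY. The 37 include ZNF320, ZNF816, ZNF347 and ZNF677, which passed the filter for the tests through KELLY alone. Such genes could hardly come out higher in LAN-1, so this count follows in part from the filter. The directions in clusters 4, 7 and 8 held with FPKM, median-ratio scaling, quantile normalization and without mitochondrial transcripts, all under a like filter. There cluster 4 had 0 to 2 genes higher and 23 to 27 lower in SKNAS than in LAN-1, and cluster 7 had 17 to 19 higher and 0 to 2 lower. The Hmx1 arms of the lines gave the same directions, with 1 gene higher and 24 lower in cluster 4 and 19 higher and 1 lower in cluster 7 between SKNAS and LAN-1 (53.1% of all genes called, 34.2% higher and 18.9% lower). Between LAN-1 and KELLY, 0 were higher and 28 lower in cluster 8 (49.9% of all genes called, 33.9% higher and 16.0% lower). Between SKNAS and KELLY, 0 were higher and 22 lower in cluster 4 (64.8% of all genes called, 48.7% higher and 16.1% lower).

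Single genes differed by far more than the spread within groups. In cluster 7, ZNF45 averaged 42.8 ± 4.83 TPM in SKNAS control tumours, against 5.53 ± 0.746 TPM in LAN-1 and 13.0 ± 3.22 TPM in KELLY control tumours, and its log2 difference of SKNAS minus KELLY was 1.66 ± 0.20 (SE, limma, adjusted p = 1.36e-06). ZNF226, in the same cluster, had 32.1, 32.8 and 31.4 TPM in SKNAS control libraries, against 6.79, 3.14 and 6.97 TPM in LAN-1 control libraries. In cluster 4, ZNF737 averaged 0.0623 ± 0.0716 TPM in SKNAS, 27.5 ± 3.05 TPM in LAN-1 and 7.64 ± 3.35 TPM in KELLY control tumours, a log2 difference of -4.74 ± 0.24 for SKNAS minus LAN-1 (SE, limma, adjusted p = 1.88e-11). ZNF90 was listed at 0 TPM in every SKNAS library, averaged 16.7 ± 3.40 TPM in LAN-1 control and 0.495 ± 0.445 TPM in KELLY control tumours, and led the genes higher in LAN-1 than in KELLY (log2 difference 3.59 ± 0.24, limma adjusted p = 2.1e-09). ZNF585A of cluster 6 averaged 25.6 ± 4.04 TPM in SKNAS and 0.750 ± 0.779 TPM in LAN-1 control tumours. ZNF253 was lower in SKNAS (0.179 ± 0.0233 TPM) than in LAN-1 (14.3 ± 6.44 TPM). The genes most above KELLY in SKNAS were ZNF584, ZNF284, ZNF550, ZNF557 and ZNF45, with log2 differences of 1.66 to 1.88, of which the call for ZNF284 was lost under median-ratio scaling, under quantile normalization and without the third KELLY control library. The genes most above KELLY in LAN-1 after ZNF90 were ZNF442, ZNF486, ZNF737 and ZNF793, with log2 differences of 1.78 to 2.26.

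The Hmx1 arm of SKNAS differed from its control arm at 18 of the 230 zinc finger genes, 8 higher and 10 lower, a share of 7.83% where 8.76% of all genes were called. The calls in either direction were likewise near the background, with 3.48% of the zinc finger genes higher (4.96% of all genes) and 4.35% lower (3.80% of all genes). The median change of the 230 genes was -0.02 on the log2 scale. Of the 10 lower genes, 6 lay in a stretch of cluster 8. Clusters 1, 2, 3, 5 and 7 had 0 called genes, of 4, 14, 24, 5 and 22 tested. Whether the calls were spread unevenly along the chromosome was not tested. Between the same arms PTPRC was called higher (log2 change 1.31 ± 0.17, limma adjusted p = 3.3e-05) and CD14, LUM and DPT lower, with the values given above. The endothelial marker TEK was called higher, at 3.22 ± 0.333 TPM against 1.07 ± 0.173 TPM in SKNAS control (SD, limma adjusted p = 1.05e-05). CDH5, KDR and VWF, also of endothelium, were not called. Among the noradrenergic markers CHGA was called higher (limma adjusted p = 0.00603) and TH lower (limma adjusted p = 2.9e-05). The part of these markers in the calls was not tested.

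**Figure D4:**
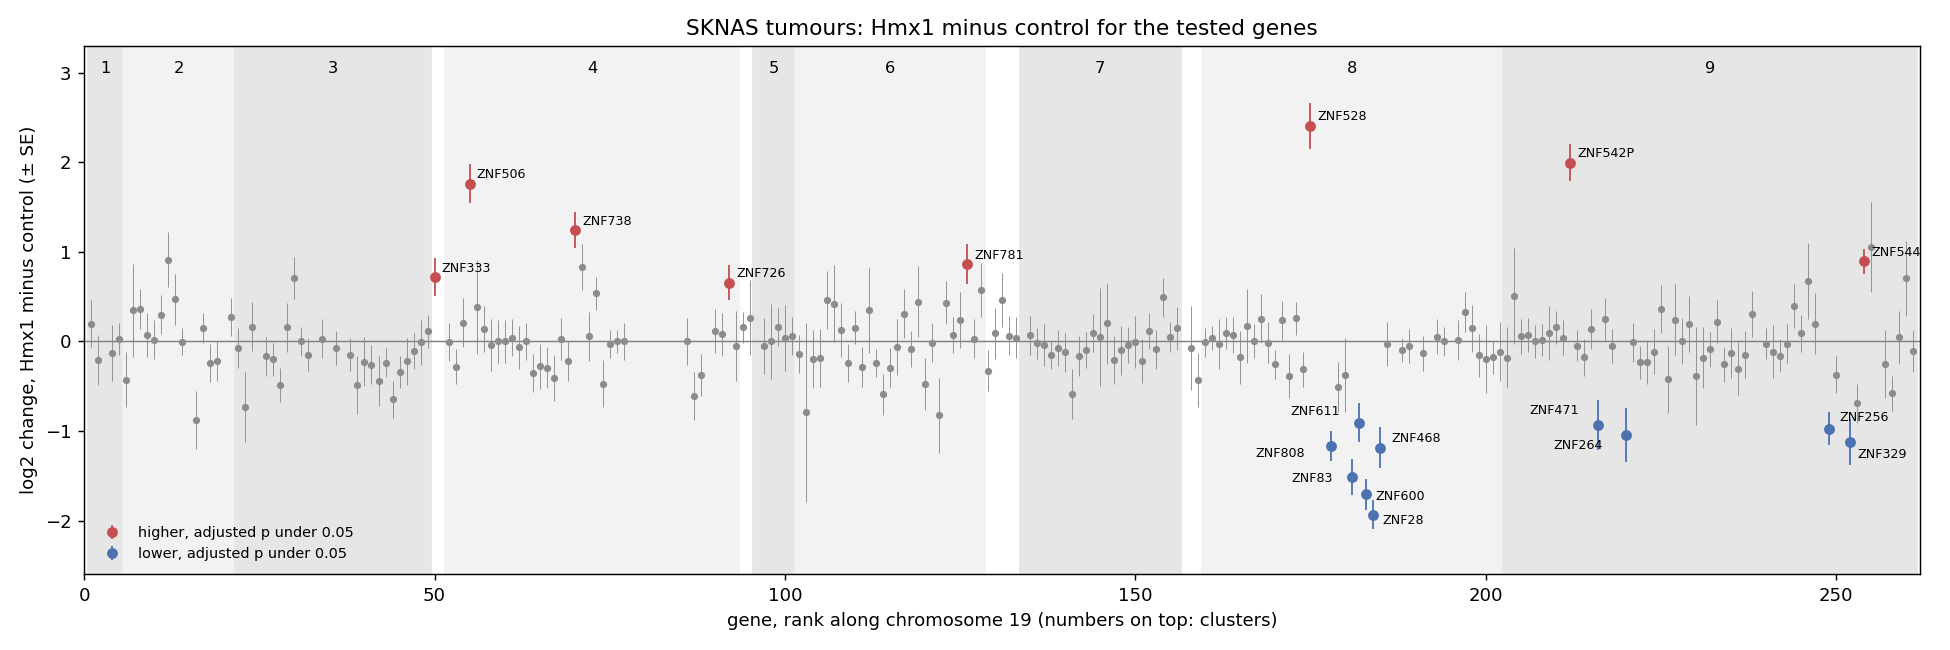
Log2 change of Hmx1 minus control in SKNAS for the 230 tested zinc finger genes, by rank along chromosome 19, with standard error bars. Higher and lower genes stand on both sides of 0 in clusters 8 and 9, and the lower genes of cluster 8 stand together.

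Lower in SKNAS Hmx1 were ZNF808, ZNF83, ZNF611, ZNF600, ZNF28 and ZNF468, 6 of 8 consecutive zinc finger genes over 330 kb (53030905 to 53360902). Both ends of this stretch are called genes, set after the calls were seen, so 6 of 8 is a description. Of the 37 tested genes of cluster 8, 6 were lower (16.2%) and 1 higher (2.70%). Of all genes, 3.80% were lower and 4.96% higher. ZNF28 had 1.55, 2.10 and 2.01 TPM in SKNAS Hmx1, against 10.6, 9.04 and 10.4 TPM in SKNAS control libraries. The arms did not overlap, and the log2 change was -1.93 ± 0.16 (SE, limma, adjusted p = 1.56e-07). ZNF600 had 0.630, 0.967 and 0.811 TPM in Hmx1, against 4.09, 5.63 and 5.01 TPM in control libraries, a log2 change of -1.71 ± 0.17 (limma adjusted p = 1.55e-06). ZNF83, whose values are given above, was lower in every Hmx1 than in any control library of SKNAS, with a log2 change of -1.51 ± 0.21 (limma adjusted p = 6.36e-05). ZNF808 had 0.499, 0.486 and 0.436 TPM in Hmx1, against 2.91, 1.90 and 2.21 TPM in control libraries (log2 change -1.17 ± 0.17). ZNF468 had 1.79, 1.81 and 1.28 TPM in Hmx1, against 4.42, 3.92 and 6.92 TPM in control libraries (log2 change -1.19 ± 0.23). ZNF611, whose change was the smallest of the 10 and which falls outside the rule for named genes, had 5.49, 5.70 and 5.29 TPM in Hmx1, against 13.7, 8.49 and 11.9 TPM in control libraries (log2 change -0.91 ± 0.22, limma adjusted p = 0.0111). It is named here because it completes the stretch, a choice made after its values were seen.

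The 2 genes of the stretch that were not called, ZNF701 and ZNF137P, had log2 changes of -0.51 ± 0.28 and -0.38 ± 0.41. Some neighbours share bases: ZNF28 overlaps ZNF468 by 19593 bases on the same strand, ZNF808 overlaps ZNF701 by 8643 bases on the same strand, and ZNF137P overlaps ZNF83 by 3348 bases on the opposite strand. The longest GENCODE v29 transcript of ZNF468 also shared 99.1% of its 125-base words with transcripts of ZNF320, so reads could be split between these genes. ZNF320 had at most 0.0907 TPM in SKNAS, where ZNF468 was measured in every library, and how the reads they share were assigned is not known. ZNF160, 209 kb beyond the stretch, did not pass the test: it had 12.03, 15.6 and 12.6 TPM in SKNAS Hmx1, against 11.8, 16.0 and 16.8 TPM in SKNAS control libraries. All 6 genes of the stretch were among the 10 silent in LAN-1. That list was chosen with the SKNAS control libraries, which also enter the Hmx1 comparison, so the overlap is a description.

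**Figure D5:**
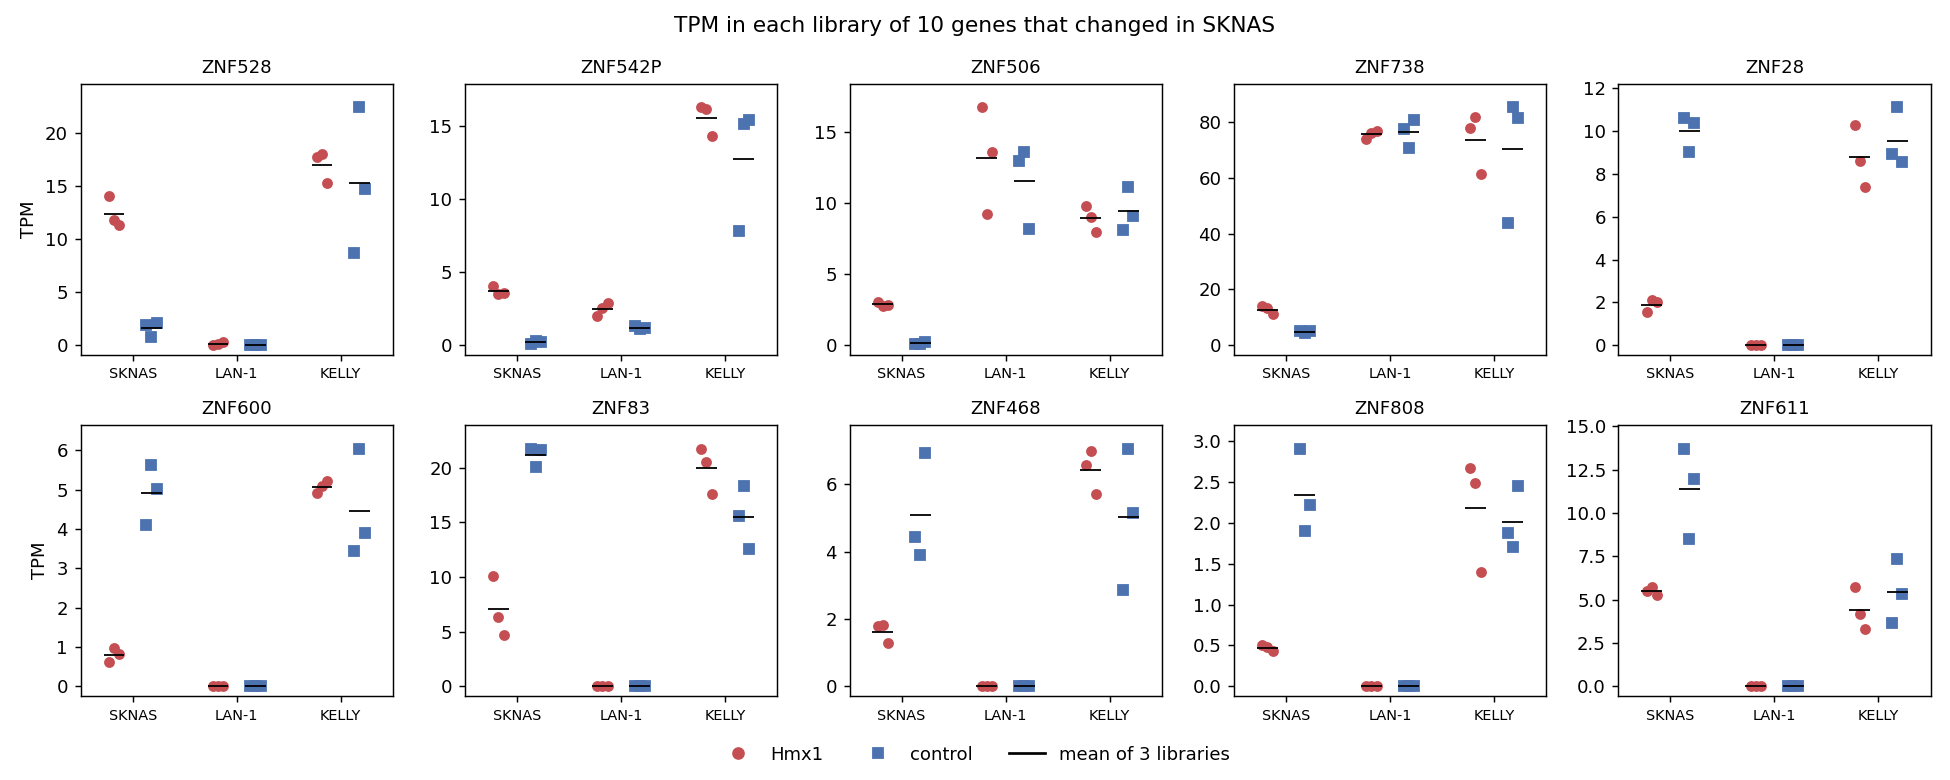
TPM in each library of 10 zinc finger genes that changed in SKNAS, with Hmx1 as red circles left of control as blue squares in each line and a black bar at the mean of 3 libraries. ZNF28, ZNF600 and ZNF83 are lower in SKNAS Hmx1 than in SKNAS control libraries and at 0 TPM or near it in LAN-1.

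The other lower genes lay in cluster 9. ZNF329 had 2.76, 8.33 and 6.54 TPM in SKNAS Hmx1, against 13.3, 12.6 and 13.0 TPM in control libraries (log2 change -1.12 ± 0.26, limma adjusted p = 0.00793). ZNF256 had 7.14, 5.95 and 6.58 TPM in Hmx1, against 12.5, 13.0 and 16.2 TPM in control libraries (log2 change -0.97 ± 0.19). ZNF264 had 5.23, 1.10 and 1.92 TPM in Hmx1, against 6.85, 4.50 and 6.79 TPM in control libraries, arms that overlap at 1 library, and its call (adjusted p = 0.0396, limma) was lost in 7 of 15 alternatives. ZNF471, also outside that rule and named after its values were seen to complete the 10, had a smaller change (log2 change -0.93 ± 0.28, limma adjusted p = 0.0463).

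Higher in SKNAS Hmx1 was first ZNF528, which lies in cluster 8 as well, 109240 bases before ZNF808. It had 14.0, 11.8 and 11.4 TPM in SKNAS Hmx1, against 1.90, 0.798 and 2.06 TPM in SKNAS control libraries, a log2 change of 2.41 ± 0.26 (SE, limma, adjusted p = 4.37e-06). In LAN-1 it had at most 0.282 TPM and in KELLY 8.72 to 22.4 TPM, so that the SKNAS Hmx1 libraries lay within the KELLY range. The pseudogene ZNF542P of cluster 9 had 4.05, 3.51 and 3.60 TPM in SKNAS Hmx1, against 0.0582, 0.262 and 0.240 TPM in SKNAS control libraries (log2 change 2.00 ± 0.21, limma adjusted p = 2.95e-06). It overlaps ZNF582 by 3785 bases on the opposite strand, and ZNF582 had 2.22, 1.56 and 2.50 TPM in SKNAS Hmx1, against 1.55, 2.68 and 2.38 TPM in SKNAS control libraries.

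ZNF506, at the start of cluster 4, had 3.06, 2.76 and 2.80 TPM in SKNAS Hmx1, against 0.0806, 0.104 and 0.244 TPM in SKNAS control libraries (log2 change 1.76 ± 0.22, limma adjusted p = 1.97e-05). It was measured at 8.14 to 16.7 TPM in every library of LAN-1 and 7.95 to 11.1 TPM in KELLY. ZNF738, also in cluster 4, had 13.9, 13.3 and 11.1 TPM in SKNAS Hmx1, against 4.91, 4.48 and 5.03 TPM in SKNAS control libraries (log2 change 1.24 ± 0.20, limma adjusted p = 0.00043). ZNF544 had 0.719, 1.01 and 0.859 TPM in SKNAS Hmx1 and was listed at 0 TPM in all 3 SKNAS control and all 6 LAN-1 libraries, against 12.6 to 17.5 TPM in KELLY. Its log2 change of 0.89 ± 0.14 (limma adjusted p = 0.000207) depends on the pseudocount and is no bound, and its adjusted p was 0.0513 with quantile normalization. All 5 of these higher genes had less in every SKNAS control library than in any KELLY library. The SKNAS control libraries also enter the Hmx1 comparison that picked these genes, so this is a description. On the scale with a pseudocount of 0.1 in place of 1, the changes of ZNF542P, ZNF506 and ZNF544 were 3.83, 3.67 and 3.26.

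The remaining higher genes were weaker. ZNF781 of cluster 6 had 2.27, 3.16 and 2.34 TPM in SKNAS Hmx1, against 0.631, 0.929 and 1.40 TPM in control libraries (log2 change 0.86 ± 0.22, limma adjusted p = 0.0181). ZNF333 had 18.4, 23.4 and 20.7 TPM in Hmx1, against 15.4, 10.5 and 11.3 TPM in control libraries (log2 change 0.72 ± 0.21, limma adjusted p = 0.0393). ZNF726 had 1.41, 1.53 and 1.63 TPM in Hmx1, against 0.679, 0.578 and 0.551 TPM in control libraries (log2 change 0.66 ± 0.19, limma adjusted p = 0.0429). The arms did not overlap for any of the 3, but the calls were lost in 3, 5 and 8 of 15 alternatives, leaving out SKNAS control library 2 among them for each.

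In LAN-1, 2 zinc finger genes were called, 1 in each direction, where 0.450% of all genes were called, 0.172% higher and 0.279% lower. ZNF536 had 6.08, 4.37 and 4.10 TPM in LAN-1 Hmx1, against 1.30, 1.44 and 1.28 TPM in LAN-1 control libraries, a log2 change of 1.31 ± 0.17 (SE, limma, adjusted p = 0.000931). The call was lost only when the LAN-1 libraries were fitted alone (adjusted p = 0.0583). ZNF226 had 2.51, 2.24 and 2.20 TPM in LAN-1 Hmx1, against 6.79, 3.14 and 6.97 TPM in LAN-1 control libraries, a log2 change of -0.94 ± 0.20 (limma adjusted p = 0.0474). This call was lost in 9 of 15 alternatives. In KELLY, 1 zinc finger gene was called, where 0.0912% of all genes were called, 0.0483% higher and 0.0429% lower. ZNF257 had 3.56, 4.02 and 3.71 TPM in KELLY Hmx1, against 1.70, 2.50 and 1.48 TPM in KELLY control libraries, a log2 change of 0.73 ± 0.13 (limma adjusted p = 0.0331), and the call was lost in 8 of 15 alternatives. It was listed at 0 TPM in all SKNAS and LAN-1 libraries.

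Whether the SKNAS changes differed from those in the other lines was tested as a difference of effects. Against LAN-1, 14 zinc finger genes differed (6 higher and 8 lower in SKNAS, where 2.98% of all genes were higher and 2.01% lower, 4.99% in all). Against KELLY 13 differed (5 higher and 8 lower, where 2.50% of all genes were higher and 2.35% lower, 4.85% in all). ZNF528, ZNF542P, ZNF506, ZNF738 and ZNF544 were higher and ZNF28, ZNF600, ZNF83, ZNF808 and ZNF468 lower in both comparisons, which share the SKNAS libraries. Of these calls, those against LAN-1 were lost for ZNF468 in 13 of 21 alternatives and for ZNF544 in 3 of 20 (FPKM, median-ratio scaling and quantile normalization). Those against KELLY were lost for ZNF738 in 7 and for ZNF544 in 12 of 21. For ZNF28 the difference was -1.94 ± 0.22 against LAN-1 and -1.82 ± 0.22 against KELLY (SE, limma, adjusted p = 2.12e-05 and 4.77e-05). LAN-1 was at or near 0 TPM in both arms for the 5 lower genes and for ZNF544. For these genes the difference against LAN-1 only restates the SKNAS change, whereas KELLY expressed them. ZNF28 had 10.3, 8.62 and 7.41 TPM in KELLY Hmx1, against 8.95, 11.1 and 8.57 TPM in KELLY control libraries. ZNF611 did not pass in either comparison (adjusted p = 0.117 and 0.28, limma). Between LAN-1 and KELLY, 0 zinc finger genes differed in effect by limma, where 0.209% of all genes were called (0.102% higher and 0.107% lower), 20 had an unadjusted p under 0.05, and 1 was called with FPKM in place of TPM.

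Genes listed as partners were read beside the zinc finger genes. The list holds genes of KRAB-dependent repression such as TRIM28 and SETDB1, and broader chromatin genes such as CTCF, ATRX, DAXX and UHRF1. Of a list of 30 partners, 29 were matched and tested, and 0 were called by limma in any of the 3 Hmx1 comparisons, where 8.76% (SKNAS), 0.450% (LAN-1) and 0.0912% (KELLY) of all genes were called. At an unadjusted p under 0.05 there were 3 in SKNAS, 2 in LAN-1 and 1 in KELLY. TRIM28, the corepressor that KRAB domains bind, averaged 280 ± 21.8 TPM in SKNAS Hmx1 and 301 ± 39.6 TPM in SKNAS control tumours. SETDB1, the histone methyltransferase that TRIM28 recruits, averaged 109.2 ± 9.19 TPM in SKNAS Hmx1 and 82.7 ± 11.6 TPM in SKNAS control tumours, a log2 change of 0.40 ± 0.19 that did not pass (limma adjusted p = 0.26). Between control arms, 6 partners were higher and 5 lower in SKNAS than in LAN-1, where 31.5% of all genes were higher and 20.5% lower. In SKNAS 17 were higher and 1 lower than in KELLY, where 49.5% of all genes were higher and 16.1% lower. In LAN-1 19 were higher and 0 lower than in KELLY, where 38.2% of all genes were higher and 13.6% lower. The medians of the 29 partners were -0.08, 0.70 and 0.71 on the log2 scale in these 3 comparisons, against 0.18, 0.54 and 0.34 for all genes.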

How the data were processed

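RNA of xenograft tumours was sequenced as 18 libraries, 6 groups of 3, and deposited as 1 gene table per library. Per the file headers, each table gives TPM, FPKM and mean coverage per gene, made by the authors from their reads. TPM, which the authors deposited scaled to 1000000 per library, was the value tested. The deposited FPKM was an alternative, and the deposited coverage signal was used only for the coverage behind 1 TPM. The submitters' processing notes name bcl2fastq, STAR and FastQC and the builds GRCh38.p12 and GRCh37, with no role. Not given in the sources used here were the program that made the tables, its annotation, its use of strand and any removal of mouse reads.

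Identifiers that a table repeated (9 to 15 per library) were summed. Symbols were matched to 52181 of 63677 identifiers by Ensembl ID, biotypes came from GENCODE v29, and sequences were read with Biopython 1.88. Genes with at least 1 TPM in at least 3 libraries were tested with limma 3.58.1 in R 4.3.3 on log2(TPM + 1), with 6 group means over all 18 libraries and a prior that follows the mean-variance trend (12 residual and 4.95 prior degrees of freedom). Benjamini-Hochberg adjustment ran over all 18650 genes tested, and an adjusted p under 0.05 was a call. Changes on this scale understate those of low genes. The fit was run on simulated data with independent normal noise and no differences between lines. It is therefore no check on shifts of whole libraries or on values listed at 0 TPM. Tables were handled with Python 3.11.15, pandas 2.3.3 and numpy 2.4.6.

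Named genes were the 10 with the highest mean and up to 8 called in each direction per Hmx1 comparison. Up to 5 in each direction were named per comparison of control arms. Every gene silent or active in a single line and the listed partner genes were named too. The members and lists were chosen with earlier results of these data known. Replicate numbers follow accession order and name libraries only. Alternatives were the pseudocount, the filter, FPKM, median-ratio scaling, quantile normalization, leaving out mitochondrial transcripts, fitting only the groups compared, no trend in the prior, other thresholds for silent and active genes, and leaving out each library.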

Additional observations from a re-analysis of the deposited data

Results flagged for a closer look

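Differences of the Hmx1 effect between lines were tested as interaction terms in limma over all genes tested, and the zinc finger genes named by the rule that passed are given here as log2 differences. The comparisons share the SKNAS libraries. For SKNAS minus LAN-1, the effect was larger for ZNF528 (2.26), ZNF506 (1.59), ZNF542P (1.34), ZNF738 (1.25), ZNF781 (1.19) and ZNF544 (0.89). It was lower for ZNF28 (-1.94), ZNF600 (-1.71), ZNF83 (-1.51), ZNF468 (-1.19), ZNF808 (-1.17) and ZNF536 (-1.15). Calls were lost in 13 of 21 alternatives for ZNF468, in 9 of 21 for ZNF781, in 3 of 20 for ZNF544 and in 1 of 21 for ZNF536. ZNF544, ZNF28, ZNF600, ZNF83, ZNF468 and ZNF808 were at or near 0 TPM in both LAN-1 arms, so that their differences restate the SKNAS changes. The ZNF536 difference comes with the rise of that gene in LAN-1 Hmx1.

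For SKNAS minus KELLY, the effect was larger for ZNF528 (2.17), ZNF506 (1.83), ZNF542P (1.67), ZNF738 (1.12) and ZNF544 (0.74). It was lower for ZNF600 (-1.89), ZNF83 (-1.87), ZNF28 (-1.82), ZNF468 (-1.55), ZNF329 (-1.32), ZNF808 (-1.23), ZNF256 (-1.17) and ZNF257 (-0.73). Calls were lost in 17 of 21 alternatives for ZNF329, in 12 for ZNF544, in 9 for ZNF257 and in 7 for ZNF738. ZNF257 was listed at 0 TPM in SKNAS, so that its difference restates the KELLY change.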

How the results depend on the processing

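No paired analysis was possible because the labels give no replicate numbers, and numbers in accession order pair no libraries. Of 74 results for named genes, 56 kept direction and call under every alternative run, 18 lost the call under some and 0 reversed. That held for 10 of 19 Hmx1 effects, 29 of 30 control differences and 17 of 25 differences of effect. Of the summary counts, 247 alternatives lay within 1.5 times the reported count and 23 did not. The LAN-1 count of 2 was 1 without a filter, 1 with at least 1 TPM in 6 libraries, 4 with median-ratio scaling, 4 with quantile normalization and 0 with only the groups compared, and 1 to 2 with a library left out. The KELLY count of 1 was 0 with a pseudocount of 0.1, 0 with only the groups compared, 0 without the trend, and 0 to 1 with a library left out. The count of 0 for the LAN-1 minus KELLY effect was 1 with FPKM and 0 to 3 with a library left out. With silent meaning under 0.5 TPM, 14 genes in place of 7 were silent in SKNAS and 11 in place of 7 active only in KELLY. For genes active only in LAN-1 the count was 0 to 1 with a library left out. The cause of these shifts was not tested. TPM keeps no depth, so a gene listed at 0 TPM has no upper limit here.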
